A study of Mus musculus with 2 samples.

Results

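The Id family comprises 4 genes, Id1, Id2, Id3 and Id4, and all 4 were found by symbol among the 27998 genes of the deposited matrices. Id proteins are helix-loop-helix proteins without a DNA-binding region. They pair with E proteins such as those encoded by Tcf3, Tcf4 and Tcf12 and keep these from binding DNA. Transcription of Id1, Id2 and Id3 is a direct readout of bone morphogenetic protein (BMP) signalling through Smad1 and Smad5, and in endothelium the circulating ligands BMP9 and BMP10 act through the receptor ALK1, encoded by Acvrl1, with its co-receptor endoglin. Id1 and Id3 are known for partly shared roles in vessel growth, Id2 for roles in epithelial and immune cells, and Id4 for roles in neural and other progenitors.

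The data were single-cell RNA-seq libraries from the lungs of C57BL/6J mice aged 10 to 12 weeks, 1 library labelled WT and 1 labelled KO, from a study of a mouse model of hereditary hemorrhagic telangiectasia type 2. This inherited vessel disease is known to arise from ACVRL1 variants, but the labels name neither the knocked-out gene nor the driver or time of its deletion, nor how many animals each library pooled. Digestion took 1 hour in dispase and 30 minutes with DNase. Cells positive for VE-cadherin, a protein of endothelial junctions, and negative for the leukocyte protein CD45 were sorted. With 1 library per group no difference has a replicate check and none was tested.

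The genes lie on 4 chromosomes of GRCm38 (GENCODE M21). Id1 (ENSMUSG00000042745) is at chr2:152736251-152737410 on the plus strand, Id2 (ENSMUSG00000020644) at chr12:25093799-25097140 on the minus strand, Id3 (ENSMUSG00000007872) at chr4:136143497-136145755 on the plus strand and Id4 (ENSMUSG00000021379) at chr13:48261228-48266026 on the plus strand. RefSeq promoter windows of 300 bases (GRCm38.p6) were at hand for 3 of the 4 members, Id2, Id3 and Id4. They are shown because the family is described as a set of BMP-Smad target genes, and the capitals mark 2 motifs that Smad proteins are known to bind, GGCGCC (bound by Smad1 and Smad5) and CAGAC (bound by Smad4). Bases upstream of the RefSeq start and outside annotated exons are printed for Id2 (chr12:25096254-25096342, minus strand) and Id4 (chr13:48260866-48261115, plus strand), and for Id3 the 30 bases round a motif (chr4:136143643-136143672, plus strand, inside an annotated exon), each 5′ to 3′.
Id2: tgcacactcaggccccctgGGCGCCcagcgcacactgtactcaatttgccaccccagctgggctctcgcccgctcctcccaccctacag
Id3: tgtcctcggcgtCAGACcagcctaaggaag
Id4: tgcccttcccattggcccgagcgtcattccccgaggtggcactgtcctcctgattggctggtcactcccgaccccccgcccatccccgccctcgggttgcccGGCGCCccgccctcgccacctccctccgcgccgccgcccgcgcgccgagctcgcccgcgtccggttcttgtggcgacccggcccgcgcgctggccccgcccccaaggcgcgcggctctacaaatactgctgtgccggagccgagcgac
GGCGCC, which reads the same on both strands, occurred once in the Id2 window, starting at base -231 from the RefSeq gene start, once in the Id4 window at -148, and not in the Id3 window. CAGAC, searched on both strands, occurred in the Id3 window at -167 on the forward and -68 on the reverse strand and not in the other two. These RefSeq starts differ from the GENCODE M21 gene ends given above: for Id2 and Id3 the start and the motifs lie inside the GENCODE gene, and for Id4 upstream of it. Of all 32851 RefSeq windows of this length, 11.9% held GGCGCC and 49.6% held CAGAC. The letters CACGTG (in 7.15% of windows), TGACGTCA (1.79%) and TATAAA (13.6%) were in none of the 3 members' windows, again on both strands. A match is a description of the letters in this window, not a binding site.

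The WT matrix held 3482 barcodes with 25667220 unique molecular identifier (UMI) counts and the KO matrix 2196 barcodes with 17864581. The filters left 2729 WT cells (median 5435 UMIs) and 1315 KO cells (median 8646 UMIs), and 15.1% of WT and 30.5% of KO barcodes exceeded the limit on mitochondrial UMIs. Of the barcode sequences, 12 occurred in both libraries, 6 of them among the cells kept. Cells were clustered without the 4 Id genes and named from marker genes. Endothelial-like cells (1492 WT, 483 KO) had all 10 endothelial markers raised at least 2-fold (median fold 42.2). Yet the VE-cadherin sort also held 824 WT and 593 KO alveolar type 2 (AT2-like) cells, with 10 of 10 AT2 markers raised at least 2-fold. One endothelial cluster held 119 KO cells and 1 WT cell, was led by Igfbp3, Peg3 and Trp53i11, and stayed unnamed. It is called the KO-only cluster here, and whether it is a cell type or a property of that library cannot be told apart. Another cluster, of 67 WT and 41 KO cells, also had all 10 endothelial markers 2-fold above the median cluster but was led by haemoglobin genes, stayed unnamed and is not among the endothelial-like cells. A further feature set the libraries apart before any Id gene was read. Of WT cells, 2399 had UMIs of Xist alone and 9 of Y-linked genes alone, while among KO cells 200 were of the first kind and 763 of the second, so the KO library held cells of both sexes.

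Acvrl1 did not separate the libraries in capillary cells. As UMIs per 1000000 UMIs of the class (CPM), its level was 1301 in WT and 1271 in KO general capillary (gCap-like) cells, a KO over WT ratio of 0.976 (95% interval 0.922 to 1.03), and at 411 CPM in the KO-only cluster against 1269 CPM in the other KO endothelial-like cells. Reads of a 3' library may come from outside a deleted stretch, so these levels say nothing for or against the labels.

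In WT lung, Id3 and Id1 were endothelial genes at their highest levels, with arterial-like and venous-like cells above capillaries, Id2 was highest in smooth muscle, and Id4 was found almost wholly in mesenchymal cells. Levels are UMIs summed over the cells of a class per 1000000 UMIs of that class, with exact Poisson intervals of 95% that cover counting error only. Id1 stood at 1102 CPM (989 to 1224) in arterial-like and 1013 CPM (912 to 1123) in venous-like cells, which did not differ beyond their intervals. It stood at 662 CPM (636 to 688) in gCap-like cells, the general capillary cells of the alveolus, and 578 CPM (547 to 610) in aerocytes (aCap-like), the large capillary cells of gas exchange. The steps from venous-like to gCap-like and from gCap-like to aCap-like cells were larger than counting error. Smooth muscle-like (218 CPM), pericyte-like (182 CPM) and adventitial fibroblast-like cells (168 CPM) followed and were not apart from one another, and alveolar fibroblast-like (49.8 CPM) and AT2-like cells (32.9 CPM) came last.

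Id3 followed nearly the same order, from 2491 CPM (2319 to 2672) in arterial-like through 1966 in venous-like, 1219 in gCap-like and 1046 in aCap-like cells, each apart from the next. Adventitial fibroblast-like and smooth muscle-like cells held 924 and 910.0 CPM of Id3, not apart from each other, and AT2-like cells 20.4 CPM. Id2 had another order. It was highest in smooth muscle-like cells at 636 CPM (574 to 702). Venous-like (465), arterial-like (444), adventitial fibroblast-like (357) and AT2-like cells (311) followed, each not apart from the one before it within these 4, and then gCap-like (147) and aCap-like cells (53.7). Id4 stood at 271 CPM (232 to 315) in smooth muscle-like cells, 52.8 CPM in adventitial and 40.8 CPM in alveolar fibroblast-like cells. In WT endothelial-like cells Id4 had 7 UMIs in all (1.04 CPM), which is why its endothelial levels are not described further.

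**Figure D1:**
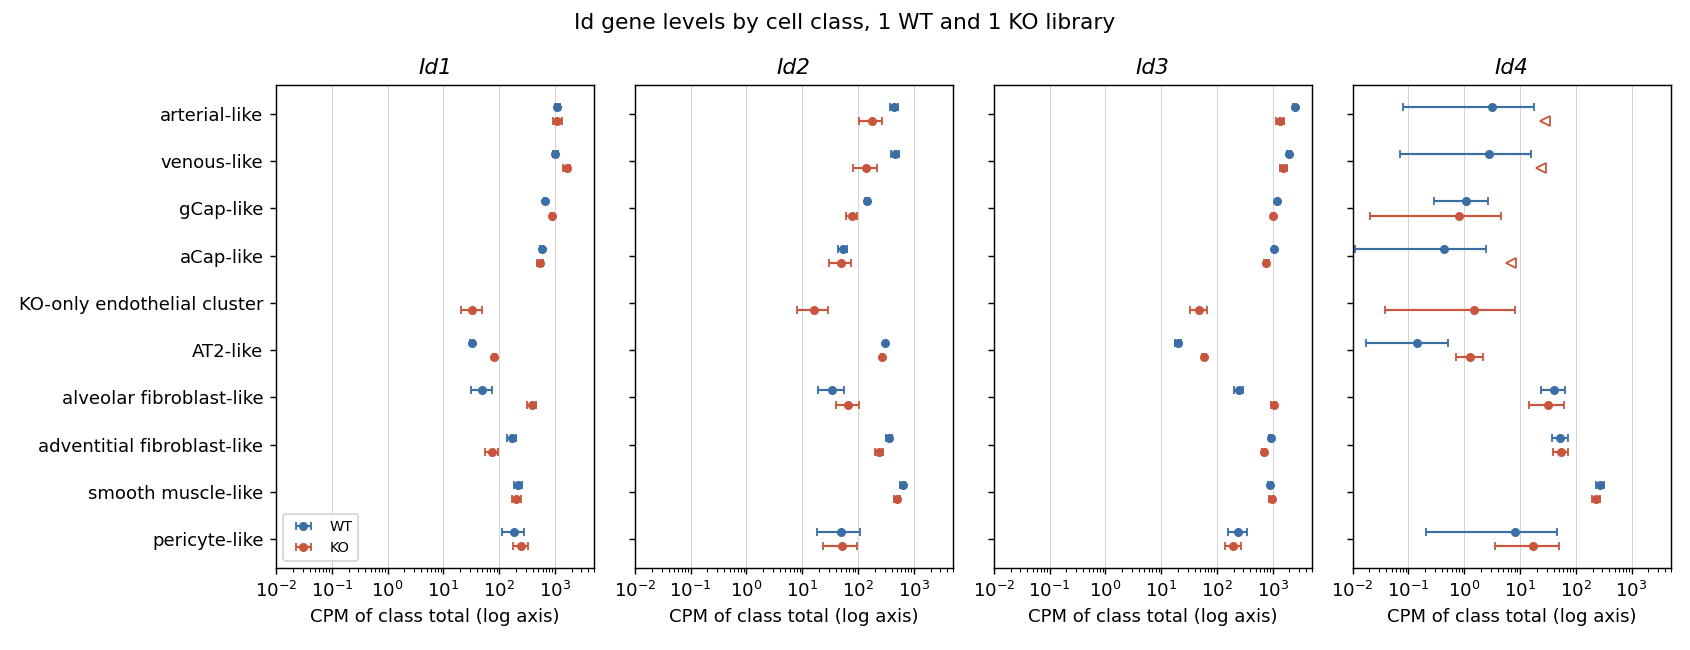
Levels of Id1, Id2, Id3 and Id4 (CPM of the class total, log axis) in each cell class of the WT (blue) and KO (red) library. Points are the summed level, bars exact Poisson 95% intervals, and open triangles the level that 3 counts would give where no UMI was seen. Id1 and Id3 were highest in arterial-like and venous-like cells, and Id4 was highest in smooth muscle-like cells at 271 CPM in WT.

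In KO endothelial-like cells Id2 and Id3 were lower than in WT and Id1 was nearly level, and the Id3 difference was smaller without the KO-only cluster. Over all endothelial-like cells the Id1 level was 671 CPM (652 to 691) in the WT and 634 CPM (603 to 665) in the KO library, which is a ratio of 0.944 (0.892 to 0.999, exact conditional binomial interval, counting error only). Id2 went from 146 to 62.3 CPM (ratio 0.427, 0.359 to 0.504) and Id3 from 1258 to 749 CPM (ratio 0.596, 0.567 to 0.625). A gene was called different when it changed at least 1.5-fold with WT and KO intervals that did not overlap; genes whose mean level fell short of 10 CPM were not judged. Id2 and Id3, 2 of the 3 members measured, were called lower, where 5.07% of all 8634 genes were. Outside the KO-only cluster Id1 was the higher in KO, at 841 CPM (801 to 883) against 671 CPM (ratio 1.25, 1.18 to 1.33), Id2 was lower at 78.2 against 146 CPM (ratio 0.535, 0.448 to 0.635) and Id3 stood at 992 against 1259 CPM (ratio 0.788, 0.750 to 0.828). There 1 of 3 members, Id2, was called lower, against 3.42% of all genes.

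Within gCap-like cells, the largest endothelial class with 965 WT and 255 KO cells, the 3 members took different directions. Id1 was 1.34 times its WT level (1.25 to 1.44), at 887 CPM (835 to 942) from 1084 UMIs against 662 CPM from 2501 UMIs. Id2 was 0.523 times its WT level (0.416 to 0.652), at 77.0 against 147 CPM, and Id3 0.845 times (0.794 to 0.90), at 1031 against 1219 CPM. Id2 was the 1 member of 3 called, among 2.93% of all genes called lower and 1.74% called higher. The 2 clusters of this class differed. In the larger (524 WT, 169 KO cells) Id1 levels were 668 and 959.8 CPM (WT, KO) and Id2 at 161 and 69.5 CPM, so that Id2 was called lower (2.57% of genes were). In the other (441 and 86 cells), Id1 stood at 653 and 666 CPM and Id2 at 125 and 99.9 CPM. Id3 stood there at 1197 and 802 CPM, a ratio of 0.670 (0.583 to 0.767), and none of the 3 was called (2.24% of genes were lower). The haemoglobin genes Hba-a1 and Hbb-bs led the smaller cluster and followed Aplnr in the larger. The smaller cluster's top 10 genes also held Sema3g, Vegfa and Esm1. Its top 10 had 1 gCap and 1 arterial marker, where the larger cluster had 4 gCap markers. The part of erythroid RNA in these values was not tested.

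In aCap-like cells (404 WT, 69 KO) none of the 3 measured members was called, where 1.75% of genes were higher and 1.88% lower. Id1 levels were 578 and 550.1 CPM (WT, KO; ratio 0.951, 0.825 to 1.09), Id2 at 53.7 and 48.7 CPM (0.907, 0.542 to 1.45), and Id3 at 1046 and 768 CPM (0.735, 0.653 to 0.824). The Id1 and Id2 differences were within counting error. With under 20 KO cells each, the arterial-like and venous-like classes are given by level alone. Id1 stood at 1102 and 1112 CPM (64 and 19 cells) in arterial-like and at 1013 (912 to 1123) and 1636 CPM (1418 to 1877; 55 and 14 cells) in venous-like cells. Id2 was lower in KO in both, at 444 and 176 CPM (106 to 275) and at 465 and 137 CPM (79.8 to 219). Id3 stood at 2491 and 1362 CPM and at 1966 and 1555 CPM. Lymphatic-like cells numbered 3 in WT and 7 in KO and had 2 Id1 UMIs in KO and none in WT.

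**Figure D2:**
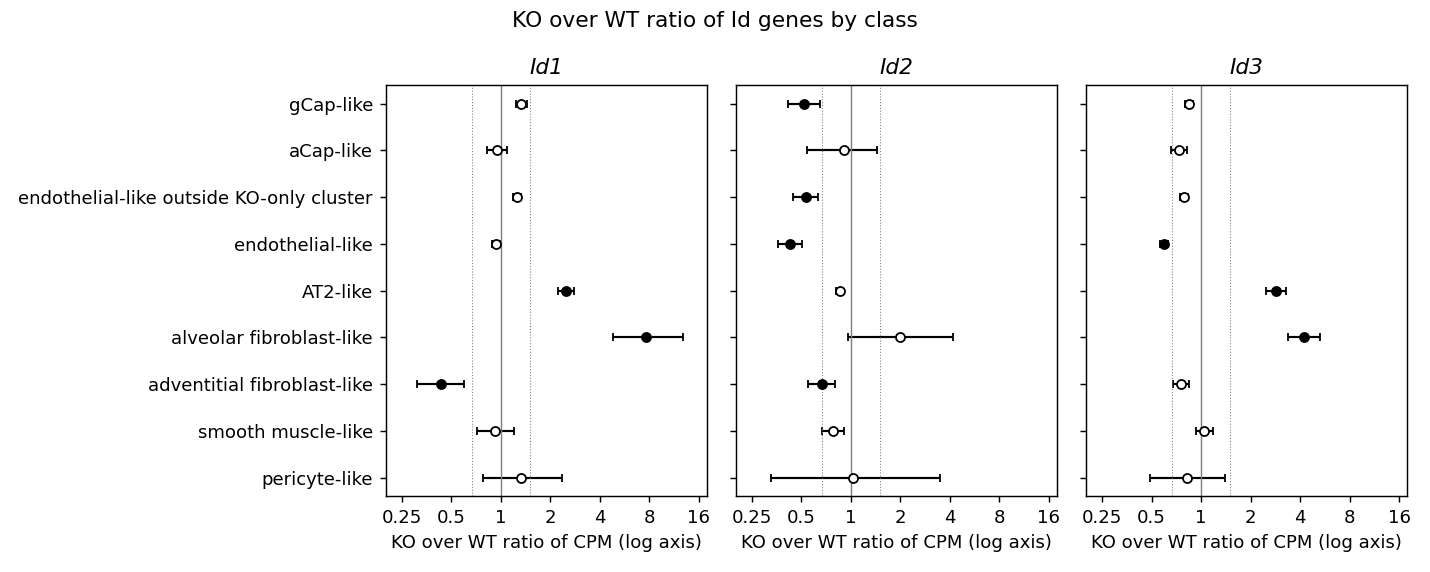
KO over WT ratio of CPM (log axis) for Id1, Id2 and Id3 in each class with at least 20 cells in both libraries. Points are ratios, bars exact conditional binomial 95% intervals, filled points passed the call of 1.5-fold with levels' intervals apart, and dotted lines mark 1.5-fold either way. Id1 ratios ran from 0.435 in adventitial to 7.69 in alveolar fibroblast-like cells, and Id2 ratios were below 1 in gCap-like cells.

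Other genes that BMP-Smad signalling is known to raise did not move with Id2 in gCap-like cells. Of 13 listed targets 9 were measured, with 2 called higher, Stc1 (38.1 to 63.0 CPM) and the gap junction gene Gja5 (6.35 to 18 CPM), and none lower. Their median log2 ratio was 0.06, beside -0.02 over all genes. None of the 9 measured BMP receptors and Smads and none of the 5 E proteins and partners was called in either direction. Bmp4, a ligand of the family, was lower at 34.4 against 57.2 CPM. Cdkn1a, a cell cycle inhibitor that Id proteins repress in other systems, was higher at 551 against 317 CPM. In aCap-like cells 0 of 6 measured targets were called, and of the receptors and Smads Smad1 was higher (37.4 to 85.9 CPM). Genes of the immediate early and heat response, which digestion is known to induce, were lower in the KO library over the same cells, summing to 4001 and 2633 CPM in gCap-like and to 4215 and 3779 CPM in aCap-like cells of WT and KO. Free RNA also differed, with the 10 AT2 markers summing to 4930 and 2618 CPM in gCap-like cells of WT and KO. The part of either in the Id ratios was not tested.

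Of the endothelial groups described here with at least 20 cells, the KO-only cluster had the lowest Id1, Id2 and Id3 levels. Its 119 KO cells held 22 Id1 UMIs (32.6 CPM, 20.4 to 49.3), 11 Id2 UMIs (16.3 CPM, 8.12 to 29.1) and 32 Id3 UMIs (47.3 CPM, 32.4 to 66.8), with 1 Id4 UMI. With the 364 KO endothelial-like cells outside it as the base, Id1 was 25.8-fold lower (ratio 0.0387, 0.0242 to 0.0588), Id3 20.9-fold lower (0.0477, 0.0326 to 0.0676) and Id2 4.8-fold lower (0.208, 0.102 to 0.383). All 3 measured members were called lower, where 8.21% of all genes were lower and 7.25% higher. Against WT endothelial-like cells the ratios were 0.0485 for Id1, 0.111 for Id2 and 0.0376 for Id3, again 3 of 3 lower (12.2% of genes were). Median depth was alike, at 5547 UMIs per cell in the cluster and 5304.5 UMIs outside it. Its summed immediate early and heat genes were 2142 CPM, against 3229 CPM in the other KO endothelial-like cells. The 4 Id genes took no part in the clustering, but genes that vary with them could, so the contrast is a description of this cluster.

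The other BMP-Smad targets were low in the same cells. Of 9 measured, 7 were called lower and none higher, with a median log2 ratio to the other KO endothelial-like cells of -2.31 beside -0.07 over all genes. The connexin genes of arteries were among them, with Gja4 at 8.88 against 96.1 CPM and Gja5 without a UMI in the cluster against 49 UMIs elsewhere. The secreted hormone gene Stc1 had 3 UMIs (4.44 CPM) against 90 UMIs (46.0 CPM). The inhibitory Smads, feedback targets of the pathway, stood at 87.3 against 616 CPM (Smad7) and 112 against 558 CPM (Smad6). Of 9 receptors and Smads, 3 were lower, namely Acvrl1, Eng (510.5 against 1349 CPM) and Bmpr2 (577 against 1861 CPM), and 3 were higher, namely Smad1 (738 against 93.5 CPM), Acvr2a and Smad5. Bmp4 was higher at 299 against 34.2 CPM. Genes of tip cells, the leading cells of vascular sprouts, went the other way, with 7 of 9 higher, where 7.25% of all genes were. Among them were Cxcr4 (343 against 23.5 CPM), Angpt2 (302 against 26.6 CPM) and Pgf (79.9 against 2.04 CPM), and Unc5b was lower. In the base itself Esm1, Angpt2 and Cxcr4, 3 of 8 measured, were called lower than in WT (3.42% of genes were). Against WT endothelial-like cells, 6 of 9 were higher in the cluster and none lower (8.98% of genes were higher). Some tip cell genes were also higher in KO than in WT elsewhere. In aCap-like cells 4 of 8 measured were (1.75% of genes were), Apln, Col4a1, Col4a2 and Unc5b, with Esm1 lower. Col4a1 and Col4a2 were higher in both fibroblast classes, smooth muscle-like and pericyte-like cells too. Angpt2 was lower in adventitial fibroblast-like and smooth muscle-like cells, and Cxcr4 in pericyte-like cells. None of the 5 E proteins and partners was called.

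Per cell, Id1 and Id3 were spread over most endothelial cells as small counts. Each cell was thinned to 1500 UMIs so that depth did not set the shares, which left out 171 WT and 120 KO cells of the whole. In gCap-like cells (61 WT and 14 KO left out) 55.1% of WT and 65.6% of KO cells had an Id1 UMI, 67.8% and 66.8% an Id3 UMI, and 16.7% and 11.2% an Id2 UMI. Unthinned, at median depths of 3861 and 4892 UMIs, the shares were 75.6% and 84.7% for Id1, 82.8% and 86.3% for Id3 and 35.9% and 27.5% for Id2. In AT2-like cells, which hold little Id1 or Id3 and lie far deeper at medians of 17649 and 19628 UMIs, thinned shares were 5.45% and 10.4% for Id1 and 2.97% and 6.84% for Id3. In aCap-like cells 46.2% of WT and 50.0% of KO cells had Id1 and 69.8% and 55.9% had Id3. Arterial-like WT cells were the richest, with 56.5% (43.3 to 69) holding at least 5 UMIs of Id1 and Id3 together, against 19.8% (17.2 to 22.5) of WT and 21.6% (16.6 to 27.3) of KO gCap-like cells. One WT aCap-like cell held 26 Id1 and 24 Id3 UMIs among its 1500.

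Cells with neither Id1 nor Id3 made up 17.1% (242 of 1418) of WT and 35.9% (167 of 465, 31.5 to 40.5) of KO endothelial-like cells after thinning. Outside the KO-only cluster the KO share was 17.8% (62 of 348, 13.9 to 22.2), close to WT at this depth. In the cluster itself it was 89.7% (105 of 117, 82.8 to 94.6). Of the 167 KO cells with neither gene, 105 lay in the KO-only cluster, 35 in gCap-like and 17 in aCap-like cells. Id1 and Id3 UMIs were each seen in 5.13% of KO-only cluster cells and Id2 in 0.855%. These shares depend on the depth chosen, and at 3000 UMIs the share without either gene was 3.38% in WT and 29.6% in KO. Outside the KO-only cluster 39 of 1154 WT and 26 of 304 KO cells had neither at 3000 UMIs, a larger share in KO. In aCap-like cells these were 14 of 359 WT and 12 of 62 KO cells. In gCap-like cells they were 25 of 689 WT and 4 of 203 KO cells, a smaller share in KO.

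**Figure D3:**
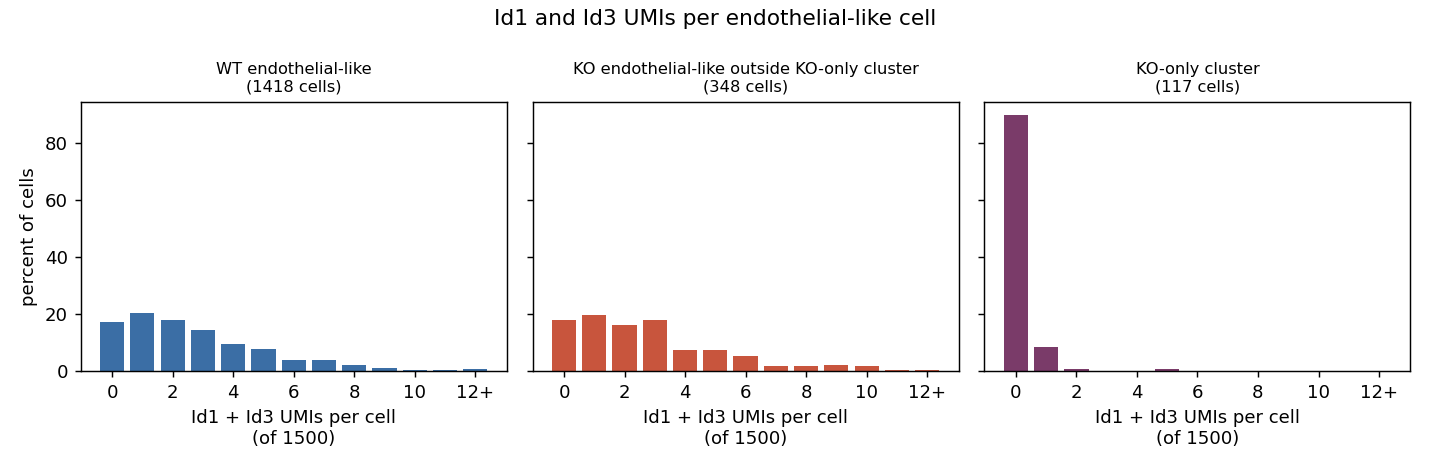
Share of endothelial-like cells (percent) by their Id1 and Id3 UMIs together, each cell thinned to 1500 UMIs, in WT, in KO outside the KO-only cluster and in the KO-only cluster; the last bar pools 12 or more. At this depth the first 2 panels have nearly the same shape, with 17.1% and 17.8% at 0, while 89.7% of the KO-only cluster sits at 0.

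Id1 and Id3 were found in the same cell slightly more often than the product of their shares. In WT gCap-like cells 40.2% (36.9 to 43.4) had both, beside a product of 37.4%, and an Id3 UMI was seen in 72.9% of cells with Id1 and 61.6% of cells without. In KO gCap-like cells 46.9% (40.5 to 53.4) had both beside a product of 43.8%. The product lay inside the counting interval in both libraries. Across cells, Pearson's r of log counts was 0.189 (904 WT cells) and 0.24 (241 KO cells), weak values from sparse counts that share a library and a thinned depth. Over all KO endothelial-like cells both genes were found in 33.1% (28.9 to 37.6) beside a product of 23.6% (r 0.428, 465 cells), and outside the KO-only cluster in 44.3% (39.0 to 49.6) beside 40.0% (r 0.285, 348 cells). At this depth the wider gap thus came with the cluster that lacked both. WT endothelial-like cells outside it had both genes in 41.2%, beside a product of 38.0% (r 0.243). At 3000 UMIs, r outside the cluster was 0.451 in 304 KO and 0.303 in 1154 WT cells. There Id3 was seen in 89.3% of KO cells with Id1 and 56.7% without, against 91.6% and 86.1% in WT. In aCap-like cells r was then 0.501 (KO) and 0.305 (WT), and in gCap-like cells 0.251 and 0.244. With Id2, at the shallower depth, the values lay near the product too. Both Id2 and Id3 were found in 11.9% (WT) and 7.47% (KO) of gCap-like cells, beside products of 11.3% and 7.48%, and both Id1 and Id2 in 9.85% and 8.30% beside 9.2% and 7.34%. Splitting KO gCap-like cells by an Acvrl1 UMI, 67.2% (60.2 to 73.6) of 201 cells with one had Id1, and 57.5% (40.9 to 73.0) of 40 cells without. In WT the same shares were 55.6% of 766 and 52.2% of 138 cells, so the intervals overlapped in each library. In the KO-only cluster Id1 was found in 3.77% of 53 cells with and 6.25% of 64 cells without an Acvrl1 UMI. A cell without an Acvrl1 UMI at this depth may still express the gene, as the 138 WT cells show. The split therefore cannot tell whether Id1 depends on Acvrl1.

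In AT2-like cells, the surfactant-making cells of the alveolus, Id1 and Id3 were low but higher in KO, and Id2, their main Id gene, was nearly level. Id1 had 463 UMIs in WT, or 32.9 CPM, and 892 UMIs in KO, or 81.9 CPM, a ratio of 2.49 (2.22 to 2.79). Id3 stood at 20.4 CPM (287 UMIs) and 58.3 CPM (635 UMIs), a ratio of 2.86 (2.48 to 3.30). Id2 stood at 311 and 266 CPM (ratio 0.856, 0.817 to 0.898), and Id4 had 2 UMIs in WT and 14 in KO. So 2 of 3 measured members were called higher, where 1.88% of genes were higher and 2.35% lower. The 2 genes were seen in few cells. With cells thinned to 3000 UMIs, both were found in 5.43% (3.67 to 7.71) of 534 KO cells, beside a product of 1.89%. In 791 WT cells both were found in 0.885% (0.357 to 1.81), beside 0.319%. Id3 was then seen in 32.2% of KO cells with Id1 and 6.98% without, against 9.46% and 2.79% in WT. Endothelial RNA was the lower in KO: the 10 endothelial markers, none at 0, summed to 166 and 73.3 CPM in AT2-like cells of WT and KO, and the Id1 level at that share of endothelial RNA would be 6.43 CPM and 3.53 CPM. For Id3 it would be 12.1 CPM of the 20.4 CPM in WT and 4.16 CPM of the 58.3 CPM in KO. These values take the endothelial RNA to be made up like that of endothelial-like cells outside the KO-only cluster, which was not tested. Club cell markers summed to 398 and 4971 CPM and erythroid markers to 53.4 and 618 CPM in the AT2-like cells. The part of endothelial, club cell and erythroid RNA in the result was not tested. Of 4 measured BMP-Smad targets Tmem100 alone was called, lower at 7.43 against 17.3 CPM. Cdkn1a was higher at 126 against 67.3 CPM.

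Alveolar and adventitial fibroblast-like cells showed opposite Id1 differences. In alveolar fibroblast-like cells (68 WT, 42 KO), the lipid-rich fibroblasts of the alveolar wall, Id1 had 22 UMIs in WT, or 49.8 CPM (31.2 to 75.4), and 108 UMIs in KO, or 383 CPM (314 to 463), a ratio of 7.69 (4.83 to 12.8). Id3 stood at 247 CPM (203 to 298, 109 UMIs) and 1040.0 CPM (924 to 1166, 293 UMIs), a ratio of 4.21 (3.37 to 5.30). Id2 had 15 and 19 UMIs (34.0 and 67.4 CPM, ratio 1.99, 0.956 to 4.20) and Id4 18 and 9 UMIs (40.8 and 31.9 CPM). Id1 and Id3, 2 of 4 measured members, were called higher, where 3.35% of genes were higher and 4.37% lower. After thinning, an Id1 UMI was seen in 6.25% of 64 WT and 42.4% of 33 KO cells, and an Id3 UMI in 26.6% and 66.7%. Both were found in 36.4% (20.4 to 54.9) of the KO cells, beside a product of 28.3%.

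Beside this, the 10 endothelial markers, none at 0, summed to 528 and 174 CPM in alveolar fibroblast-like cells of WT and KO. The alveolar fibroblast markers summed to 17345 and 12392 CPM and the smooth muscle markers to 1275 and 2492 CPM. Immediate early and heat genes summed to 6618 and 3535 CPM. The part of these in the result was not tested. Of 10 measured BMP-Smad targets, Smad7 was higher (159 to 412 CPM) and Tmem100 lower (181 to 46.1 CPM), with a median log2 ratio of -0.38 beside -0.13 over all genes. All 3 measured E proteins, the partners of Id proteins, were lower: Tcf4 at 390 against 698 CPM, Tcf12 at 74.5 against 165 CPM, and Tcf3 with 1 UMI against 16. Bmp4 was lower (204 to 53.2 CPM), while the BMP antagonist Noggin (Nog) had 1 UMI in WT and 15 in KO. Thbs1, an angiogenesis inhibitor that Id1 represses in other systems, was higher at 1420 against 322 CPM. Thbs1 was also called higher in KO aCap-like cells and over all KO endothelial-like cells.

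In adventitial fibroblast-like cells (69 WT, 50 KO), which line larger vessels and airways, Id1 had 137 UMIs in WT, or 168 CPM (141 to 199), and 55 UMIs in KO, or 73.1 CPM (55.1 to 95.2), a ratio of 0.435 (0.312 to 0.598). Id2 stood at 357 and 238 CPM (0.666, 0.550 to 0.805) and Id3 at 924 and 699 CPM (0.757, 0.676 to 0.848), with Id4 at 52.8 and 54.5 CPM. Id1 and Id2, 2 of 4 members, were called lower, where 3.8% of genes were lower and 2.72% higher. With each cell thinned to 1500 UMIs the Id2 levels came out level, with a log2 ratio of 0.0084. Of the 55 KO Id1 UMIs, 25 came from the 8 cells with UMIs of neither Xist nor Y-linked genes, whose level was 304 CPM. Of 6 measured BMP-Smad targets Bambi was higher (25.8 to 61.2 CPM) and Atoh8 (24.6 to 5.32 CPM) and Tmem100 (115 to 27.9 CPM) lower. Thbs1 was called higher here too, although Id1 was lower, and Cdkn1a was called lower. Endothelial markers summed to 571 and 331 CPM, with 1 of 10 at 0 in KO, and mesothelial markers to 73.7 and 420.2 CPM. Erythroid markers summed to 71.2 CPM in WT and 2392 CPM in KO, and immediate early and heat genes to 7291 and 4170 CPM. The part of these in the result was not tested. Pooled over both fibroblast classes, Id1 (127 and 158 CPM) and Id3 (686 and 792 CPM) differed little between the libraries, so the opposite differences showed only once the classes were kept apart.

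Smooth muscle-like cells (82 WT, 54 KO), the class with the most Id2 and Id4, showed no Id difference past the call in 4 measured members, where 2.01% of genes were higher and 3.45% lower. Id1 stood at 218 and 203 CPM (ratio 0.931, 0.718 to 1.2), Id2 at 636 and 496 CPM (0.780, 0.666 to 0.913), Id3 at 910.0 and 954 CPM (1.05, 0.929 to 1.18) and Id4 at 271 and 232 CPM (0.855, 0.674 to 1.08). After thinning, Id4 was seen in 28.0% of WT and 25.9% of KO cells and Id2 in 56.1% and 40.7%. Id3 and Id4 were found together in 15.9% of WT cells beside a product of 16.8%, and Id2 and Id3 in 37.8% beside 33.5%. Cdkn1a (88.7 to 311 CPM) and Thbs1 (223 to 409 CPM) were higher in these cells, and Tmem100 was lower. In the few pericyte-like cells (24 and 21) Id1 stood at 182 and 243 CPM, Id2 at 49.5 and 50.9 CPM and Id3 at 239 and 198 CPM, all within counting error.

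Because the KO library held cells of both sexes, each Id difference was also read within them. The 75 KO endothelial-like cells with Xist alone had far less Id1 (49.5 against 704 CPM), Id2 (15.1 against 74.7 CPM) and Id3 (71.0 against 872 CPM) than the 266 with Y-linked genes alone. All 3 measured members were called lower in the Xist cells, where 5.88% of genes were. Most of the Xist cells lay in the KO-only cluster (57 of 75), which held 45 of the 266 Y cells. Inside that cluster both kinds were low, with Id1 at 34.2 CPM in Xist and 36.9 CPM in Y cells and Id3 at 31.4 and 69.8 CPM. Outside it, the 18 Xist cells held Id1 at 96.5 CPM (48.2 to 173) and Id3 at 193 CPM (121 to 292), against 834 and 1029.9 CPM in 221 Y cells and 670 and 1254 CPM in 1376 WT Xist cells. In aCap-like cells the 8 KO Xist cells held Id1 at 120 CPM and Id3 at 265 CPM against 595 and 836 CPM in 47 Y cells. So outside the cluster the few KO Xist cells held less Id1 and Id3 than the KO Y cells, while inside it the intervals of the Xist and Y cells overlapped for both genes. Sex and animal cannot be told apart here.

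In AT2-like cells the order was the reverse. Id1 stood at 179 CPM in 84 KO Xist cells and 64.5 CPM in 398 KO Y cells, against 31.5 CPM in 761 WT Xist cells, and Id3 at 133, 43.5 and 19.1 CPM. Both KO kinds thus lay above WT, 5.69-fold and 6.95-fold for the Xist cells and 2.05-fold and 2.27-fold for the Y cells. Id1 and Id3, 2 of 3 measured members, were called higher in each of these (6.27% of all genes for Xist and 1.63% for Y cells) and between KO Xist and KO Y cells (ratios 2.78 and 3.06; 4.21% of genes). The KO Xist AT2-like cells carried 3673 CPM of erythroid markers, against 29.8 CPM in the Y cells and 49.5 CPM in WT Xist cells, and the Y cells carried the club cell markers, at 6425 against 308 CPM. Endothelial markers summed to 48.7, 62.7 and 150.5 CPM in KO Xist, KO Y and WT Xist cells.

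Among fibroblasts both sexes lay on the same side of WT. In alveolar fibroblast-like cells Id1 stood at 515 CPM in 6 KO Xist and 355 CPM in 23 KO Y cells against 47.5 CPM in 57 WT Xist cells, and Id3 at 976, 1059 and 259 CPM. The Y cells alone gave ratios of 7.47 and 4.09, with 2 of 4 members called higher (3.15% of genes). In adventitial fibroblast-like cells Id1 stood at 29.9 CPM in 14 KO Xist and 49.7 CPM in 28 KO Y cells against 168 CPM in WT Xist cells, lower in both, and the untyped cells lay above WT. Smooth muscle-like Id1 was 90.7 CPM in 11 KO Xist cells and 220 CPM in 33 Y cells, against 222 CPM in WT.

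**Figure D4:**
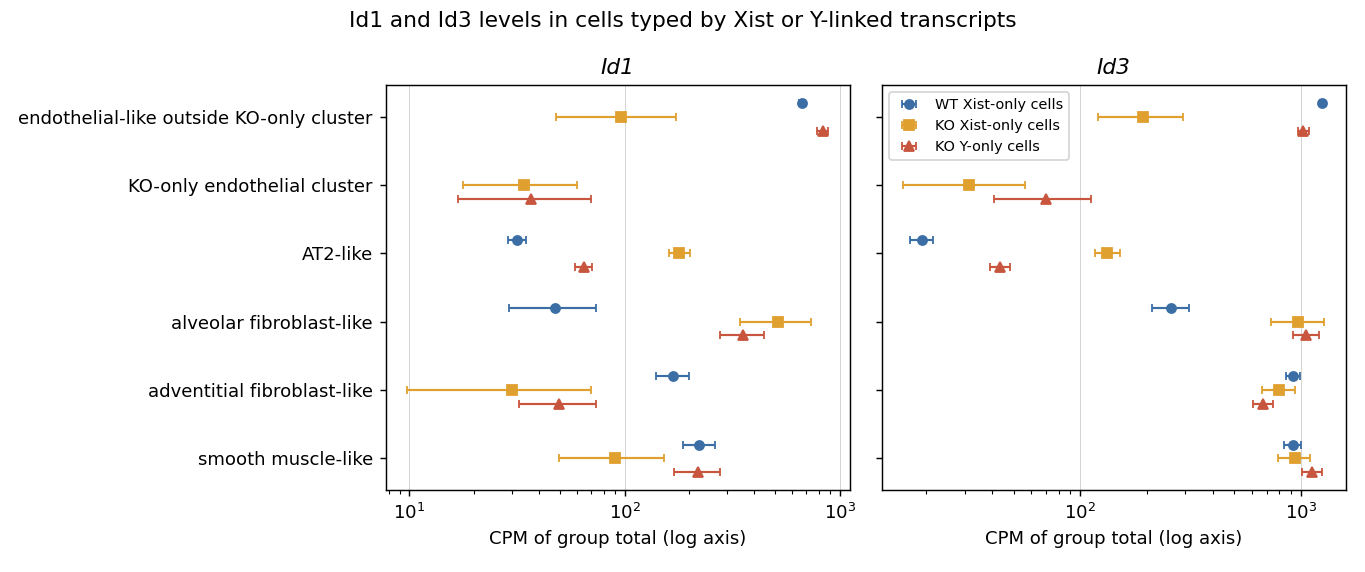
Levels of Id1 and Id3 (CPM of the group total, log axis) in WT cells with Xist alone (blue circles), KO cells with Xist alone (yellow squares) and KO cells with Y-linked genes alone (red triangles), with exact Poisson 95% intervals, for groups of at least 5 cells. KO Xist cells lie below KO Y cells in endothelial-like cells outside the KO-only cluster (Id1 96.5 against 834 CPM) and above them in AT2-like cells (179 against 64.5 CPM).

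Over 17 class by library profiles of at least 20 cells, genes were ranked by Pearson's r of log2 levels with each member among 6624 genes. The profiles share 2 libraries and related cell types, so these values are descriptions. The 5 genes most like Id1 were Ppp1r11 (0.903), Skil (0.883), Smad7 (0.881), Dhps (0.836) and Idh3b (0.833). Id1 itself was the gene most like Id3 (0.825), before Arl6ip5 (0.800), Ier5 (0.792), Ttc28 (0.780) and Mettl9 (0.778). Among the genes most like Id2 were Tpi1 (0.818), Eif4b (0.815), Eif3h (0.815) and Fau (0.802), genes of protein synthesis and glycolysis. Most like Id4 were Ntrk3 (0.965), S100a4 (0.955), Sgcd (0.955), Adam33 (0.953) and Col4a6 (0.95), each highest in WT smooth muscle-like cells. Id2 was less like Id1 (0.155) and Id3 (0.311) than these were like each other, and Id4 ran from -0.21 with Id1 to 0.406 with Id2.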

How the data were processed

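The labels name 10x Genomics 3' v3 reagents. What the authors deposited are unnormalized UMI counts for each gene in each barcode. The submitters' processing notes name Cell Ranger 3.0.1 and mm10. Barcodes passed with 500 or more genes and no more than 10% of UMIs mitochondrial, and Scrublet, run per library through scanpy 1.11.5, removed 16 WT (0.583%) and 11 KO (0.830%) doublets, leaving 2729 WT and 1315 KO cells. For clustering, each cell was scaled to 10000 UMIs and put on a log scale. Of 2000 variable genes, 635 that differed between the libraries within a named class, and the 4 Id genes, were left out, and Leiden clustering (leidenalg 0.10.2, resolution 1, 30 components, 20 neighbours) on the other 1365 gave 18 clusters.

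Clusters were named from markers (141 of 143 in the files) that stood 2-fold above the median cluster and were seen in 10% of its cells, with at least 3 needed, and checked against each cluster's top 10 genes. Naming and listing rules were revised after clusters and Id levels had been seen; an earlier version, which left alveolar fibroblast-like cells unnamed, was rerun as an alternative. The members, lists and tests were chosen with earlier results of these data known. Leukocyte-like and ciliated-like cells and the unnamed clusters, other than the KO-only cluster, were not analysed here; 1 of these had all 10 endothelial markers, with haemoglobin genes leading.

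UMIs were summed per class and library. Levels, shares and ratios carry exact Poisson, Clopper-Pearson and conditional binomial intervals at 95%, which cover counting error only. Genes named are the members in every class, Acvrl1, the 2 to 4 measured genes of each list that were called with the largest differences, and the 5 genes most like each member. Smad6 and the members of counts of 5 or fewer that fall outside this rule were named after their values were seen. Some genes that the rule would name are not reported here. Cells with UMIs of Xist alone or Y-linked genes alone were typed. Alternatives changed the cell filter, doublet removal, clustering, depth, level measure and call. The call was also run on simulated counts with known folds, drawn from gCap-like levels. These counts held counting error only, so the run cannot gauge differences between libraries or animals. No paired fit or left-out library exists with 1 library per group.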

Additional observations from a re-analysis of the deposited data

Results flagged for a closer look

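Id1 was called different in opposite directions between cell classes of the same 2 libraries. Its KO over WT ratio was 2.49 in AT2-like and 7.69 in alveolar fibroblast-like cells, and 0.435 in adventitial fibroblast-like cells. The difference between the classes was itself not tested, since each class holds 1 library per group. In each of the 3 classes, KO cells with Xist alone and KO cells with Y-linked genes alone lay on the same side of the WT Xist cells. Only 6 alveolar fibroblast-like KO cells had Xist alone. In adventitial fibroblast-like cells the 8 KO cells with neither kind of UMI went the other way and lay above WT. Endothelial markers were lower in KO than in WT in all 3 classes. The part of sex, animal and endothelial RNA in these differences was not tested.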

How the results depend on the processing

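Over 294 recomputed log2 ratios of members, 282 kept the direction of the main value, 40 moved beyond its counting interval and 1 reversed a call, Id2 in adventitial fibroblast-like cells, at 0.0084 with each cell thinned to 1500 UMIs. The Id1 log2 ratio in alveolar fibroblast-like cells ran from 2.43 to 3.32 and the Id3 log2 ratio from 2.00 to 2.27 over 10 alternatives each, and the Id1 log2 ratio of the KO-only cluster to other KO endothelial-like cells from -4.79 to -4.33 over 12. The KO-only cluster was found again in 5 other clusterings, with 116 to 119 of its 119 cells; listing differing genes within fibroblast subclasses named no fibroblast subclass and gave no ratio there. For endothelial-like cells (main log2 ratios -0.08, -1.23 and -0.75 for Id1, Id2 and Id3) the values were 0.32, -0.90 and -0.34 without clusters of 1 library, -3.76, -3.25 and -4.14 for KO Xist over WT Xist cells, and 0.072, -0.94 and -0.52 for KO Y over WT Xist cells. Thinning to 1500 UMIs gave 0.015 for Id1 and -0.67 for Id3. For AT2-like cells (main 1.32 for Id1 and 1.52 for Id3) they were 2.51 and 2.80 for KO Xist and 1.03 and 1.18 for KO Y cells over WT Xist cells, 1.05 and 0.85 as the mean of per-cell CPM, and 0.93 for Id1 when thinned. AT2-like Id3 came to 2.10 when cells needed 1000 genes and mitochondrial shares up to 5%, and to 1.2 without doublet removal. Among KO Y cells alone, Id3 in the KO-only cluster came to -3.88. The causes of these shifts were not tested. The comparisons by sex were added after seeing the data. The share of endothelial-like cells with neither Id1 nor Id3 was 27.8% in WT and 45.5% in KO at 1000 UMIs and 3.38% and 29.6% at 3000, and 94.9% in the KO-only cluster at 1000. Genes called in endothelial-like cells numbered 788, or 293 at 2-fold and 314 with a mean of at least 50 CPM. In AT2-like cells they numbered 311, or 99 at 2-fold, 82 at 50 CPM and 802 with at least 3 UMIs in either library. No paired analysis was possible because each group is 1 library, and for the same reason none could be left out. Depth limits Id4 in endothelial-like and AT2-like cells, Id2 in alveolar fibroblast-like cells and all values of arterial-like, venous-like and pericyte-like cells.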
